A study of Equus caballus with 8 samples.

Results

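Transcripts of the fibroblast growth factor (FGF) ligands and receptors were compared between untreated and TGF-β2-treated cultures of BM-MSCs, the mesenchymal stem cells of equine bone marrow. The genes were chosen by symbol, as FGF1, FGF2, FGF5, FGF7, FGF10, FGF18, FGFR1, FGFR2, FGFR3 and FGFRL1. Of these 10 symbols, 9 had a row among the 15266 named genes of the deposited table, made up of 5 ligands and 4 receptors. FGF5 had no row and was not analysed here. BM-MSCs adhere to plastic, and these were grown from the sternal marrow of 4 adult Thoroughbred or Thoroughbred-cross horses (D, J, L and W in the labels). Every animal contributed 1 untreated culture and 1 culture given 1 ng/ml human recombinant TGF-β2, so that each group held 4 libraries and each treated library had an untreated partner from the same animal. Both groups grew in low-glucose DMEM with 10% fetal bovine serum. The study's methods also list basic FGF, the protein encoded by FGF2, at 1 ng/ml in the standard medium, so the untreated cells were not free of added FGF. The labels place the exposure between isolation and passage 3 or 4, and the methods give 3 passages. All values are therefore those of long exposure in serum-containing culture, with 1 culture per horse and treatment.

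FGFs are secreted proteins that bind receptor tyrosine kinases together with heparan sulphate chains on the cell surface, and the activated receptor signals largely through RAS and ERK. FGFR1, FGFR2 and FGFR3 carry the kinase, whereas FGFRL1 binds FGFs but lacks the kinase domain. In marrow stromal cultures FGF2 is a standard growth supplement, FGF7 and FGF10 are ligands that mesenchyme makes for neighbouring epithelium, and FGF18 and FGFR3 are best known from cartilage and growing bone.

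Between 40044240 and 57228675 reads were assigned to named genes in the untreated libraries and between 39184554 and 46634539 in the treated ones. Summed over the 5 of 6 listed marrow stromal markers that had a row (LEPR had none), the level was 138766 to 309522 normalized counts untreated and 150975 to 250162 treated. Within this sum THY1, the gene of the surface antigen CD90, fell (log2 fold change -2.21, limma adjusted p = 0.049). ITGB1 was higher, at 70290 to 85751 normalized counts untreated and 116122 to 184270 treated (log2 fold change 0.91, limma adjusted p = 0.012). Haematopoietic markers (3 of 6 with a row) summed to 490.7 to 2601 normalized counts untreated and 387 to 711 treated. The untreated library of horse J held the most. Most of its sum was CD68, at 2437 normalized counts against 451 to 740 in the other untreated libraries. This library also held the most PTPRC, which encodes the leukocyte antigen CD45, at 109.7 against 1.74 to 41.5. Among the untreated libraries it is also the one with the lowest FGFR1, FGFR2 and FGFR3. Endothelial markers (2 of 5 with a row) summed to 7.10 to 26.3 normalized counts untreated and 30.0 to 55.7 treated, and KDR, a receptor for VEGF, rose (log2 fold change 2.27, limma adjusted p = 0.036). The 1 epithelial marker of 5 with a row, the keratin gene KRT8, rose from 0 to 0.942 normalized counts untreated to 39.3 to 122 treated (limma adjusted p = 3.2e-04). Chondrocyte markers (4 of 5 with a row, COL2A1 without one) summed to 680.0 to 1279.6 normalized counts untreated and 1406 to 2517 treated. They did not move together. SOX9 rose (log2 fold change 1.21, limma adjusted p = 0.033) and COMP had 1.11 (0.334), whereas ACAN had -0.43 (0.883) and MATN3 -1.60 (0.115). Muscle markers (4 of 5) summed to 33086 to 173023 untreated and 209054 to 573867 treated. ACTA2, CNN1 and DES rose (log2 fold changes 2.27, 3.10 and 4.46), whereas MYH11 had -0.12 (limma adjusted p = 0.956). The part of these marker differences in the results was not tested. In bulk RNA, fewer cells of a type and less RNA per cell cannot be told apart.

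TGF-β2-treated BM-MSCs held more FGF1 and FGFRL1 transcript and less FGF2, FGF7 and FGFR3 transcript than untreated BM-MSCs. FGF10, FGF18, FGFR1 and FGFR2 did not pass the test. A call of differential expression needed a log2 fold change beyond 1 in either direction and a p below 0.05 after Benjamini-Hochberg adjustment, by limma on log2(normalized count + 1) of all 14907 genes that passed a filter on low values. All 9 FGF genes passed that filter, with values above its minimum of 10 normalized counts in all 8 libraries. Of the 9, 2 were higher and 3 were lower after treatment, and the same 5 were called with the horse as a block. Among all genes tested, 5.59% were called higher and 5.87% lower. The treated and untreated libraries did not overlap for these 5 genes and overlapped for the 4 not called. The calls rest on the same values, so this adds no separate evidence for them. Of all genes tested, called or not, 27.8% did not overlap. The median log2 fold change of the 9 genes was -0.27, beside 0.01 over all genes tested. Values below are normalized counts, which are not divided by transcript length, so levels are compared between libraries and not between genes.

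**Figure D1:**
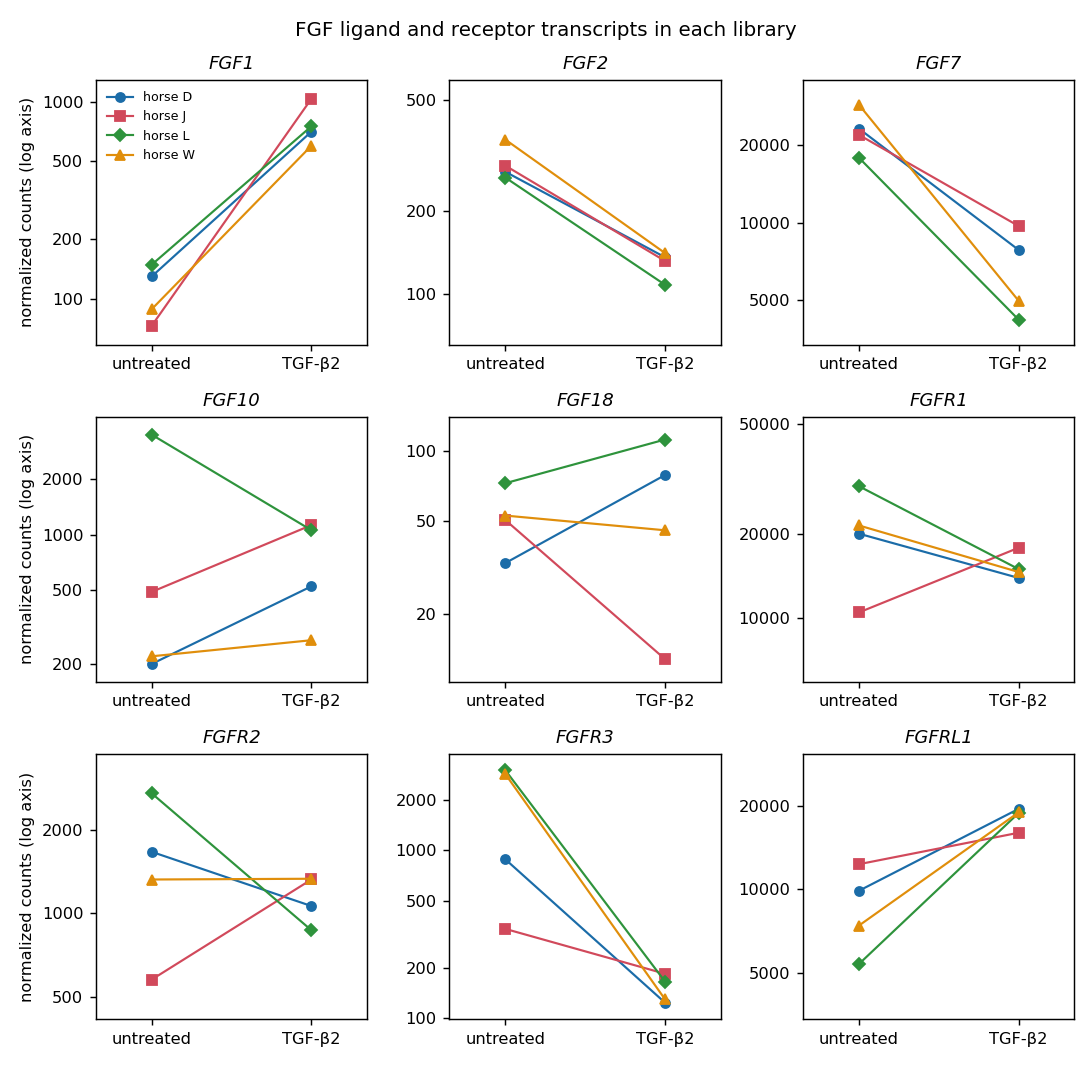
Normalized counts (vertical log axis, a separate scale in each panel) of the 9 FGF ligand and receptor genes in the untreated and TGF-β2-treated library of each horse, joined by a line per horse. FGF1 and FGFRL1 go up and FGF2, FGF7 and FGFR3 go down in all 4 horses. FGF10, FGF18, FGFR1 and FGFR2 go up in some horses and down in others.

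FGF1, or acidic FGF, is a ligand that can bind every FGF receptor, and it had the largest increase of the set. Its untreated level was 129.6 normalized counts in horse D, 72.7 in J, 149 in L and 88.3 in W, and the treated level was 709.9, 1045, 756 and 602 in the same order. The lowest treated library thus stood above the highest untreated one by a wide margin. The means were 109.9 ± 35.4 untreated and 778 ± 189 treated (SD, n = 4 each), a 7.16-fold increase (95% interval 4.66 to 11.03) with a log2 fold change of 2.84 ± 0.27 (SE) and a limma adjusted p of 7.69e-04, or 0.00294 with the block. The increase held in every horse and was largest in horse J, whose untreated library was the lowest and whose treated library was the highest. By size of increase FGF1 ranked 229 of the 14907 genes tested.

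FGF2, or basic FGF, moved the other way. The untreated libraries held 276 normalized counts in horse D, 290.2 in J, 263 in L and 360.2 in W, and the treated libraries 136, 132, 108 and 141. Every treated library was below every untreated one, and FGF2 was the most uniform of the 9 genes, with within-horse log2 changes between -1.35 and -1.02. The means were 297 ± 43.4 and 129 ± 14.4 (SD, n = 4 each), a 2.29-fold decrease with a log2 fold change of -1.19 ± 0.17 (SE) and a limma adjusted p of 0.00303 (block 0.00456). This is the transcript of the cells. The FGF2 protein that the study's methods add to the medium is human and does not enter an RNA measurement.

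NUDT6, which encodes a nudix hydrolase, is the nearest protein-coding neighbour of FGF2. In other mammals its transcripts overlap those of FGF2 on the opposite strand. In the horse RefSeq annotation of TB-T2T, a different assembly from that of the reads, the spans of the 2 genes do not overlap but lie 184 bases apart. The only entry there that overlaps FGF2 is a long non-coding RNA without a row in the table. Whether reads were counted by strand is not given in the sources used here. NUDT6 fell with FGF2, from 859, 827, 726 and 969 normalized counts in the untreated libraries of D, J, L and W to 432, 406, 331 and 412 (845 ± 100.2 to 395 ± 44.3, SD, n = 4 each). Its log2 fold change was -1.09 ± 0.14 (SE) with a limma adjusted p of 0.00194 (block 0.00285). The ratio of FGF2 to NUDT6 normalized counts within a library was 0.321 to 0.372 untreated and 0.314 to 0.341 treated, lower after treatment in all 4 horses by 1.02 to 1.11-fold. Whether any reads were counted for the other gene of the pair was not tested.

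FGF1 and FGF2 moved in opposite directions in each horse. The ratio of FGF1 to FGF2 normalized counts was 0.245 to 0.566 in the untreated libraries and 4.28 to 7.93 in the treated ones, an increase of 11.1 to 31.7-fold within a horse. Only the change of this ratio can be read, because neither gene is divided by its length.

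**Figure D2:**
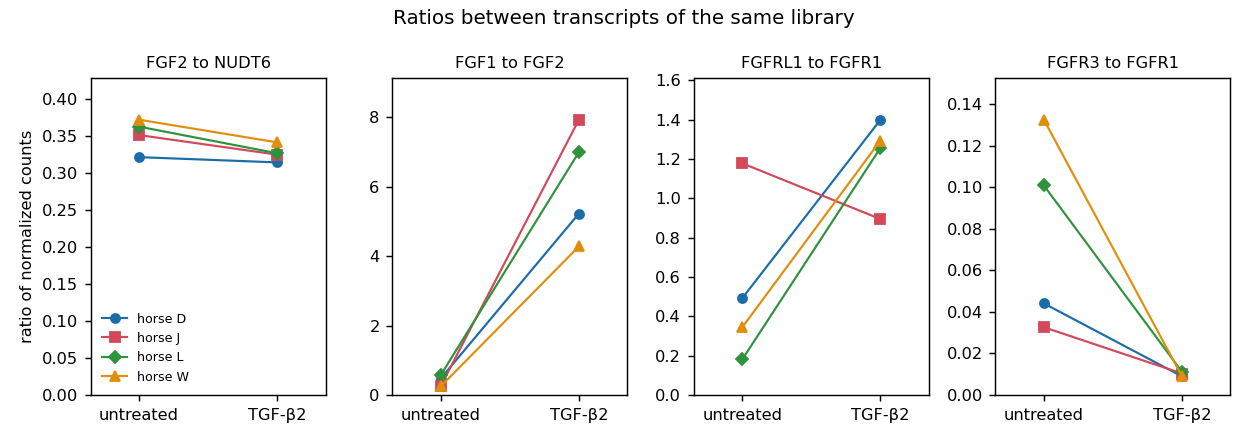
Ratio of the normalized counts of 2 genes within a library (vertical axis from 0, no unit, a separate scale in each panel), untreated and TGF-β2-treated, with a line per horse. The FGF2 to NUDT6 ratio stays between 0.314 and 0.372, FGF1 to FGF2 is higher and FGFR3 to FGFR1 lower after treatment in all 4 horses, and FGFRL1 to FGFR1 is higher in 3 horses and lower in horse J.

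FGF7, or keratinocyte growth factor, acts on epithelial cells through a splice form of FGFR2. It fell in all 4 horses. The untreated libraries held 23104 normalized counts in horse D, 21858 in J, 17820.3 in L and 28588 in W, and the treated libraries 7835, 9696, 4208 and 4979.8. No treated library reached the lowest untreated one. The means were 22843 ± 4445 and 6679.6 ± 2545 (SD, n = 4 each), a 3.57-fold decrease with a log2 fold change of -1.83 ± 0.27 (SE) and a limma adjusted p of 0.00345 (block 0.00511). Within horses the log2 change was -1.17 in J, -1.56 in D, -2.08 in L and -2.52 in W. FAM227B, whose span overlaps that of FGF7 in the TB-T2T annotation, held 7.54 to 32.5 normalized counts in any library, against 4208 or more of FGF7. It was named after its values were seen.

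FGF10 is a close relative of FGF7 and acts on the same receptor form. It did not pass the test, and its change was not tested against that of FGF7. Untreated libraries held 199 normalized counts in horse D, 490.1 in J, 3489 in L and 219 in W, and treated libraries 525, 1128, 1059 and 268. The untreated library of horse L stood apart from the other untreated libraries, and the groups overlapped. FGF10 was higher after treatment in horses D, J and W (log2 changes of 1.39, 1.2 and 0.29) and lower in L (-1.72). The log2 fold change of 0.29 ± 0.91 (SE) had a limma adjusted p of 0.853 (block 0.704), and its 95% interval covered treated-to-untreated ratios from 0.288 to 5.19. The interval reaches far to both sides of no change. The ratio of FGF7 to FGF10 was lower after treatment in all 4 horses, by 1.29 to 7.77-fold. It was 5.11 to 130 untreated and 3.97 to 18.6 treated, so the groups overlapped.

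FGF18, a ligand of cartilage and bone, was the least abundant member in reads, with 12 to 97 reads per library. The untreated libraries held 33.1 normalized counts in horse D, 50.5 in J, 72.6 in L and 52.8 in W, and the treated libraries 78.6, 12.8, 112 and 45.7. It was higher after treatment in D and L and lower in J and W, and the groups overlapped. The log2 fold change was -0.07 ± 0.62 (SE, limma adjusted p = 0.954, block 0.936), with an interval of 0.358 to 2.55 for the treated-to-untreated ratio.

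Among the receptors, FGFR1, a main kinase receptor of mesenchymal cells, did not pass the test. Untreated libraries held 20075 normalized counts in horse D, 10448 in J, 29764 in L and 21494 in W, and treated libraries 13909.6, 17858, 14968 and 14611. FGFR1 was lower after treatment in D, L and W and higher in J, the horse with the lowest untreated value. The log2 fold change was -0.33 ± 0.29 (SE, limma adjusted p = 0.454, block 0.429), with an interval of 0.507 to 1.26 for the treated-to-untreated ratio. Without horse J it was -0.69 (limma adjusted p = 0.0272), under the fold change needed for a call.

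FGFR2, whose alternatively spliced immunoglobulin-like domain decides whether it binds FGF7 and FGF10, gave the same order of horses at its ends. Its untreated values were 1665 normalized counts in horse D, 578 in J, 2704 in L and 1324 in W, and the treated values 1062, 1324, 869 and 1332. The log2 change was 1.2 in J, -0.65 in D, -1.64 in L and 0.01 in W. The log2 fold change was -0.27 ± 0.42 (SE, limma adjusted p = 0.688, block 0.670), with an interval of 0.427 to 1.61 for the ratio. Gene-level counts do not separate the splice forms of the receptors, so a change of form would not be seen.

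FGFR3, the receptor that restrains growth-plate cartilage, had the largest decrease of the set. The untreated libraries held 885 normalized counts in horse D, 341 in J, 3003 in L and 2849 in W, and the treated libraries 124, 184, 166 and 129.8. The untreated values fell into a high pair, L and W, and a lower pair, D and J, whereas the treated values lay close together and below all of them. The means were 1769 ± 1355 and 151 ± 28.9 (SD, n = 4 each), and the fitted decrease was 8.47-fold (95% interval 3.01 to 23.8) with a log2 fold change of -3.08 ± 0.65 (SE) and a limma adjusted p of 0.0131 (block 0.0169). Within horses the log2 change ranged from -0.88 in J to -4.45 in W, so the direction was shared by all 4 horses and the size was not. The call was lost without horse D, L or W (limma adjusted p = 0.0776, 0.0576 and 0.0891), with log2 fold changes between -3.17 and -2.63, and kept without horse J (0.0041).

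FGFRL1, the member without a kinase, rose. Its untreated levels were 9874 normalized counts in horse D, 12309 in J, 5378 in L and 7398 in W, and its treated levels 19473, 15976, 18811 and 18910.0. All treated libraries were above all untreated ones, and horse J had both the highest untreated and the lowest treated value. The means were 8739.8 ± 3007 and 18293 ± 1572 (SD, n = 4 each), a 2.19-fold increase (95% interval 1.5 to 3.18) with a log2 fold change of 1.13 ± 0.24 (SE) and a limma adjusted p of 0.0126 (block 0.0197). This is the call closest to the fold change threshold. It was lost without horse D (log2 fold change 1.18, limma adjusted p = 0.0721), L (0.90, 0.0388) or W (1.05, 0.0948) and kept without horse J (adjusted p = 0.00766). With each library scaled to its total instead of its size factor, which moved the median of all genes by -0.31, FGFRL1 had a log2 fold change of 0.82 (adjusted p = 0.0424) and was not called.

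**Figure D3:**
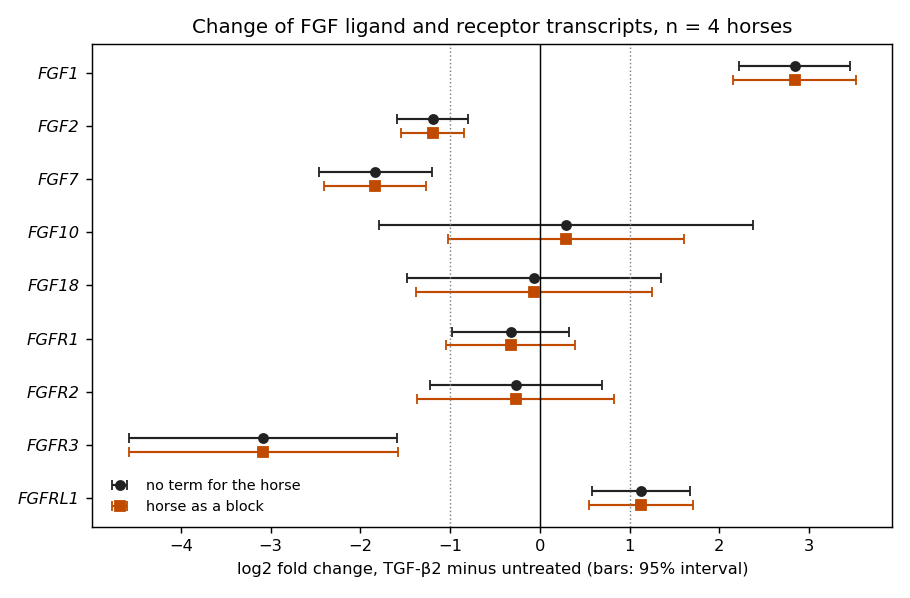
Log2 fold change (TGF-β2 minus untreated, horizontal axis) of each FGF gene by limma with its 95% interval, without a term for the horse (circles) and with the horse as a block (squares), for 4 horses. Dotted lines mark a log2 fold change of -1 and 1, and the intervals of FGF1, FGF2, FGF7, FGFR3 and FGFRL1 leave out 0.

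The balance of the receptors was also compared within libraries. The ratio of FGFR3 to FGFR1 normalized counts was 0.0326 to 0.133 untreated and 0.00888 to 0.0111 treated, lower in all 4 horses by 3.16 to 14.9-fold. FGFRL1 to FGFR1 went from 0.492 to 1.40 in horse D, from 0.181 to 1.26 in L and from 0.344 to 1.29 in W. In horse J, in contrast, it went from 1.18 to 0.895. FGFR2 to FGFR1 was 0.0553 to 0.0909 untreated and 0.0581 to 0.0912 treated, higher in 2 horses and lower in 2, so this proportion overlapped between the groups whereas that of FGFR3 did not.

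For all 4 receptors, the untreated libraries of the horses differed more than the treated ones. The highest library exceeded the lowest by 2.85-fold untreated and 1.28-fold treated for FGFR1, by 4.68 and 1.53-fold for FGFR2, by 8.82 and 1.49-fold for FGFR3 and by 2.29 and 1.22-fold for FGFRL1. Expressed as the SD of log2 values between horses, the treated spread was 0.182 (FGFR3) to 0.317 (FGFR2) of the untreated spread for the receptors, against a median of 0.766 over all genes tested. Of all genes tested, 65.9% had the narrower spread in the treated libraries. Among the ligands the same quotient was 0.509 for FGF10, 0.702 for FGF1 and 0.844 for FGF2, whereas FGF7 (2.0) and FGF18 (2.90) spread more after treatment. With 4 horses per group these quotients are a description and were not tested.

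Within horses, J was an end of the order for most members. It had the smallest decrease of FGF7 and FGFR3, the smallest increase of FGFRL1, the largest increase of FGF1, and increases of FGFR1 and FGFR2 that were seen in no other horse beyond a log2 change of 0.01. Over the 1709 genes called, horse J had a median absolute log2 change of 1.76, between those of L (1.71) and of D and W (1.95 and 1.98). The untreated library of horse J is the one with the highest CD68 and PTPRC levels given above, and the part of these in the FGF values was not tested.

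**Figure D4:**
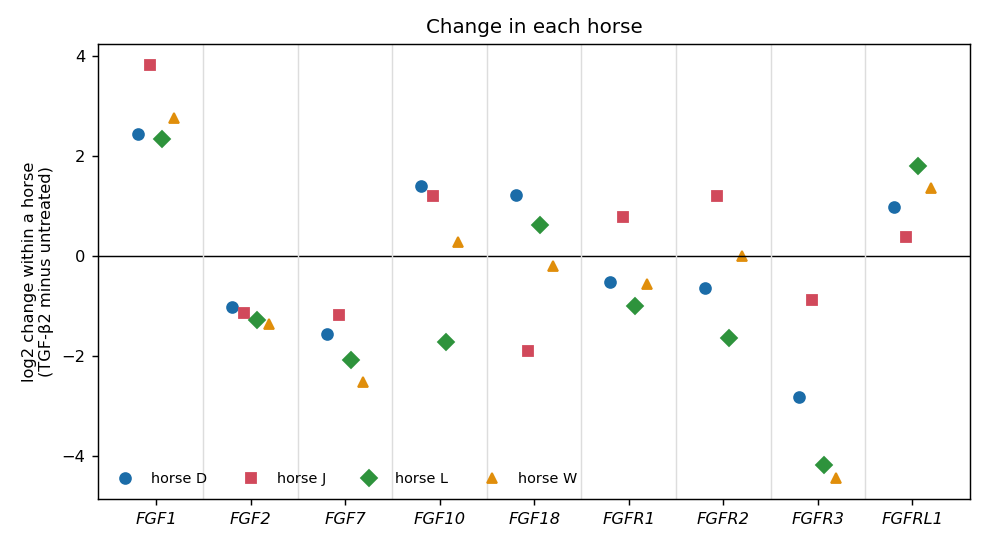
Log2 change within each horse (TGF-β2 minus untreated, vertical axis) for the 9 FGF genes, with a symbol per horse. FGF1 and FGFRL1 lie above 0 and FGF2, FGF7 and FGFR3 below 0 in all 4 horses, and horse J lies above the other horses for FGFR1, FGFR2 and FGFR3.

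The genes that work beside the receptors were taken as 4 lists with 76 symbols, of which 67 were tested, 2 rose and 8 fell. Over all genes tested, 5.59% were called higher and 5.87% lower. The adaptors and kinases that carry the signal from the receptor through RAS to ERK numbered 19, and by limma 0 of them were called. DESeq2 and edgeR also called 0, and the median log2 fold change was 0.09. An unadjusted limma p under 0.05 was seen for 12, and the share of all genes at that rule is not given here. At an adjusted p under 0.05 with no fold change threshold, 3 of the 19 passed, beside 3403 of all 14907 genes tested. MAPK3, which encodes ERK1, had a log2 fold change of -0.68 (limma adjusted p = 0.00343), HRAS one of 0.65 (0.0150) and the ERK kinase MAP2K1 one of 0.56 (0.0408), all under the fold change threshold.

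Of 17 genes listed as ERK-responsive feedback or target genes, 0 rose and 2 fell by limma (median log2 fold change 0.11). Without the block DESeq2 and edgeR also called 2. Whether each listed gene responds to ERK in these cells was not tested. Over all genes tested 5.59% were higher and 5.87% lower, so a list of this size with 2 calls is near the background. At an adjusted limma p under 0.05 with no fold change threshold, 3 of the 17 passed, beside 3403 of all 14907 genes tested. An unadjusted p under 0.05 was seen for 6, with no share of all genes to set beside it. The immediate early transcription factor EGR1 went from 8582 ± 3516 to 1599.6 ± 666 normalized counts (SD, n = 4 each), a log2 fold change of -2.44 ± 0.47 (SE, limma adjusted p = 0.00918, block 0.0179). The ETS factor ETV1 went from 4038 ± 1761 to 1582 ± 591 (-1.33 ± 0.33, SE, adjusted p = 0.0219, block 0.0379). The best-known feedback genes did not pass: DUSP6, a phosphatase of ERK, had a log2 fold change of 0.11 (adjusted p = 0.808), the inhibitor SPRY2 one of 0.28 (0.555) and SPRY4 one of -0.87 (0.0718, block 0.0200). With the block, 1 of the list rose and 3 fell, the additions being ETV4 (log2 fold change 1.06, adjusted p = 0.303 without and 0.0277 with the block) and IL17RD (-1.01, 0.163 and 0.0332). Without horse D the list held 1 call and without horse W it held 0.

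Of 14 tested co-receptors and FGF-binding proteins (20 listed), 4 fell and 0 rose by limma, and DESeq2 and edgeR without the block also called 4. Over all genes tested 5.59% were called higher and 5.87% lower. The median log2 fold change of all 14 was 0.10. At an adjusted limma p under 0.05 with no fold change threshold, 5 of the 14 passed, beside 3403 of all 14907 genes tested. An unadjusted p under 0.05 was seen for 6, with no share of all genes to set beside it. GPC3, a heparan sulphate proteoglycan of the glypican family, went from 7091 ± 5232 to 22.004 ± 14.1 normalized counts (log2 fold change -7.69 ± 1.09, SE, limma adjusted p = 0.00275). The syndecans SDC3 (8868 ± 1629 to 1426 ± 282, log2 fold change -2.64, adjusted p = 2.38e-04) and SDC4 (4737 ± 2337 to 1099 ± 177, -1.997, adjusted p = 0.00404), which also carry heparan sulphate, fell in every horse. FLRT2, a transmembrane protein that binds FGF receptors, went from 778 ± 448 to 189 ± 54.0 (-1.91, adjusted p = 0.0153). ANOS1, the secreted anosmin that binds FGFR1, was called higher with the block alone (log2 fold change 3.19, adjusted p = 0.0721 without and 0.00423 with it).

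Of 17 tested enzymes that build or trim heparan sulphate, 2 rose and 2 fell by limma (median log2 fold change 0.10), beside 5.59% higher and 5.87% lower over all genes. Without the block DESeq2 called 5 and edgeR 4. EXT1, a polymerase of the chain, rose from 5142 ± 743 to 14208 ± 1866 normalized counts (SD, n = 4 each, log2 fold change 1.47, limma adjusted p = 7.47e-04). The sulphotransferase gene HS3ST1 rose from 0 to 4 reads per untreated library to 27 to 46 reads per treated library (adjusted p = 0.00148). HS3ST1 reached the filter's 10 normalized counts in treated libraries only, so it was tested through the group where it is high. The transferase gene EXTL2 fell (log2 fold change -1.03, adjusted p = 0.00991), and so did HPSE, which encodes the enzyme that cleaves the chains, from 45.1 ± 17.0 to 8.71 ± 7.32 (-2.44, adjusted p = 0.0205). Among the treated libraries HPSE reached 10 normalized counts only in that of horse W, so the untreated group brought it through the filter. The extracellular sulphatases stayed under the threshold, SULF1 with a log2 fold change of 0.48 (adjusted p = 0.297) and SULF2 with one of -0.96 (0.0240).

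**Figure D5:**
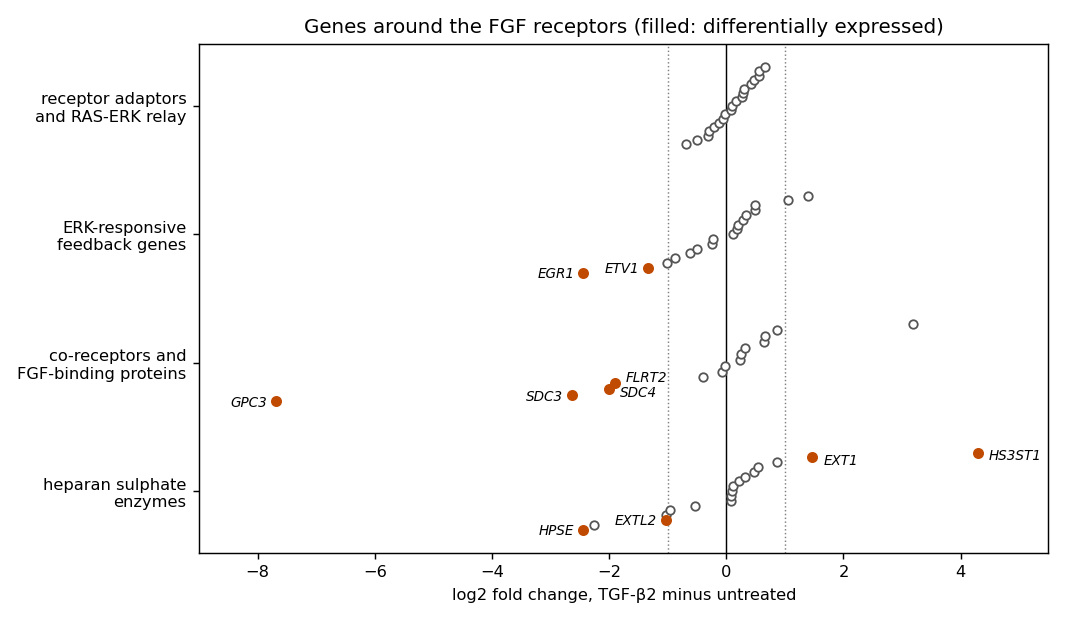
Log2 fold change (TGF-β2 minus untreated, horizontal axis) of the 67 tested genes of 4 FGF pathway lists, a point per gene, with differentially expressed genes filled and named and dotted lines at -1 and 1. None of the 19 relay genes is filled, and GPC3, with -7.69, lies farthest from 0.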

How the data were processed

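RNA of 4 untreated and 4 TGF-β2-treated cultures was poly(A)-selected and sequenced with paired ends. Per the submitters' processing notes and the methods, the authors used Trimmomatic 0.36 for trimming, STAR 2.5.2b for alignment to EquCab 3.0 and, for counting unique hits, featureCounts (Subread 1.5.2). They deposited gene counts divided by a size factor per library, a signal that is never negative. Low values were whole multiples of 1 step per library, so reads were recovered (100% whole within 0.1 reads). Depth is their sum, and precision for low genes is limited by counting error. The row without a gene name (0.0281% to 0.0531% of reads) was left out.

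The main test was limma 3.58.1 (R 4.3.3) on log2(normalized count + 1), with an intensity trend. The added 1 understates changes of low genes. A gene entered when 4 or more libraries held 10 normalized counts or more. The study's text names no term for the horse, so the main model had none. Libraries of the same horse deviated together (correlation 0.386 to 0.609, 4 pairs, horse letters from the labels), so the block is given beside it. Alternatives were pseudocounts of 0.5 and 5, no filter, a filter at 50, total and TMM scaling, DESeq2 1.42.0 with and without the horse and edgeR 4.0.16 on the recovered reads, leaving out each horse, and the adjusted p alone as the rule for a call. The block with a horse left out was added after seeing the data. Steps were tested on simulated data. The genes named are all FGF genes with a row, every called gene of the lists and at most 3 others per list. Members and lists were chosen with earlier results of these data known.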

Additional observations from a re-analysis of the deposited data

Results flagged for a closer look

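FGF10 in the untreated library of horse L was 3489 normalized counts, while the nearest other untreated library held 490.1. On normalized counts, without the log2 scale of the tests, the gap was 0.912 of the whole range of the group. That is above Dixon's 95% critical value for 4 libraries, which assumes normally distributed values. The flag depends on this scale and was not examined on log2 values. This was 1 of 18 groups examined (9 genes in 2 groups), and chance flags about 1 in 20. The same library was also the highest untreated one for FGF1, FGF18, FGFR1, FGFR2 and FGFR3 and the lowest for FGF2, FGF7 and FGFRL1.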

How the results depend on the processing

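FGF1, FGF2 and FGF7 were called in all 15 alternatives listed in the methods. FGFR3 was called in all 11 that kept the 4 horses and FGFRL1 in 10, the exception being total scaling, and both were called in 1 of the 4 fits that left out a horse, the one without J. The number of FGF genes called was 3 to 5 with a horse left out, and with the paired model (horse as a replicate block) it was 5, with no call of an FGF gene changed. FGF10 was -0.020 on the log2 scale with total scaling, -0.56 with DESeq2, -0.55 with edgeR and -0.077 to 0.96 with a horse left out (-0.077 without D, -0.012 without J). FGF18 was 0.25 with DESeq2 and with edgeR and -0.50 to 0.54 with a horse left out (0.54 without J). FGFR2 was -0.76 to 0.19 (0.19 without L). The block with a horse left out gave the same values. None of these 3 genes was called anywhere, and the cause was not tested. The number of all genes called was 718 (without D) to 1899 (without J), 795 without W, and 2108 with the block. It was 3403 with no fold change threshold, a wider rule by construction. Pathway genes called numbered 6 (without W) to 10 with a horse left out, 13 with the block, 16 with DESeq2 and the block and 16 with no fold change threshold. With total scaling 27.6% of calls were higher, against 48.8%. Heparan sulphate enzymes called numbered 2 with the filter at 50, which tests fewer genes, and ERK-responsive genes 5 with DESeq2 and the block. Fits with a horse left out have fewer samples, and the 12 to 97 reads of FGF18 limit its precision.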

Other observations

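Of 16 other FGF family symbols looked for, 5 had a row. FGF22, a secreted ligand of the FGF7 subfamily, was higher after treatment in every horse, at 20.01, 34.3, 16.0 and 14.2 normalized counts untreated (horses D, J, L and W) and 107, 83.5, 69.0 and 87.7 treated. The means were 21.1 ± 9.12 and 86.8 ± 15.8 (SD, n = 4 each), with a log2 fold change of 2.05 ± 0.32 (SE, limma adjusted p = 0.0041, block 0.00665). FGF22 thus rose while FGF7 fell and FGF10 did not pass the test. FGF12, an intracellular family member that is not secreted, rose from 8.89 ± 7.44 to 30.5 ± 11.3 (log2 fold change 1.88, limma adjusted p = 0.0387, 0.0537 with total scaling). FGF19, a hormone-like member, went from 23.5 ± 37.2 to 113 ± 76.9 and was called with the block alone (log2 fold change 3.08, limma adjusted p = 0.0607, block 0.0134).

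FGF11, another intracellular member, went from 1026 ± 444 to 612 ± 222 normalized counts (log2 fold change -0.70, limma adjusted p = 0.190, block 0.0383) and was not called. FGF13 did not pass the filter on low values, with 14.8, 5.39, 62.2 and 5.07 normalized counts untreated and 0, 3.21, 2.30 and 1.201 treated. These genes were listed by family name, and no change of receptor use or signalling was measured.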
